A study of Homo sapiens with 3 samples.

Results

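The genes described here lie on chromosome 7 on both sides of ABCB1, from band 7p11 on the short arm, across the centromere, to band 7q21 on the long arm. They were taken as a list of 59 genes of that stretch outside the immediate ABCB1 cluster, and 55 of them, of 19775 genes named on the array, had a probe set (a group of probes read as 1 value) that names 1 gene. The members were selected on the MAS5 signals of these same arrays, as genes of a stretch whose signals were higher in the doxorubicin-resistant line, so every difference from the parental line below is a description of that choice and was not tested. Of the remaining members, KCTD7 and SBDS had only probe sets shared with another gene, and MAGI2 and KRIT1 are not analysed here.

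The samples were 3 RNA preparations of MHCC97Low, a human metastatic hepatocellular carcinoma line, with 1 array each. They comprised the parental line, the cisplatin-resistant subline MHCC97L/CisR and the doxorubicin-resistant subline MHCC97L/DoxR, both derived from it and all grown without treatment before extraction. Doses and selection times are not given in the sources used here, and neither is whether a subline is 1 clone. The design asked which genes differ between each resistant subline and the parental line. There were no replicates, so the size of a difference cannot be judged against variation among cultures, and the small number of arrays bounds what each value can show. In such bulk RNA, fewer cells of a type and less RNA per cell cannot be told apart.

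ABCB1 encodes P-glycoprotein, a membrane pump that carries doxorubicin and many other drugs out of the cell, and higher ABCB1 expression is a well-known route to anthracycline resistance. The genes around it share a position on the chromosome rather than a pathway. They include a urea cycle enzyme, housekeeping enzymes, the genes of the Williams-Beuren interval (a block of 7q11 whose loss of 1 copy causes a developmental syndrome), and a few genes of restricted expression. The arrays measured RNA and give no count of DNA copies.

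Signals were deposited as MAS5 values on a linear scale. Values under a floor of 76.9, the median of all signals, were raised to it, and a gene was compared when at least 1 of its values lay above the floor. Differences are in log2 units of signal, and a member is said to follow the regional difference when its signal was at least 1.5-fold higher in the doxorubicin-resistant array than in the parental one. The median signal was between 73.3 and 79.2 on the 3 arrays, and all genes had a median difference of 0.00 and 0.02 from parental in the doxorubicin-resistant and cisplatin-resistant arrays. Of 11 hepatocyte and fetal liver markers, 7 to 8 lay above the floor on an array with a summed signal of 3224 to 12647, lowest in the cisplatin-resistant array, where albumin (ALB) had a signal of 3.17. Epithelial markers were above the floor for 4 of 5, with summed signals of 62435 to 76881, leukocyte markers for 0 to 1 of 4, with summed signals of 167 to 240, and endothelial markers for 2 of 5, with summed signals of 1052 to 1333. Fibroblast markers were above the floor for 2 to 4 of 6, with summed signals of 728 in the parental, 1540 in the doxorubicin-resistant and 3350 in the cisplatin-resistant array. Of these the matrix proteoglycan lumican (LUM) had 258, 1167 and 2632. In the same order COL1A1 had 309, 242 and 511, and no other fibroblast marker exceeded 86.0 on an array. PTPRC, the pan-leukocyte marker, was under the floor on every array. The part of these differences in the values below was not tested.

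Most members on the long arm were higher in the doxorubicin-resistant array, while those on the short arm were not. Of the 53 members compared, 40 (75.5%) were at least 1.5-fold higher than parental, where 9.10% of all 12599 genes were, and 19 were at least 2-fold higher, where 2.99% of all genes were. Only AUTS2, CD36 and TFPI2 were at least 1.5-fold lower, where 8.62% of all genes were, and AUTS2 alone reached 2-fold lower, where 2.75% were. The median difference was 0.84 over the members and 0.90 over the 48 members of the long arm, a 1.86-fold higher signal. The quartiles of the long-arm members were 0.68 and 1.14, and those of all genes were -0.24 and 0.25. The member just above the 1.5-fold limit had a difference of 0.65 and the one just below it 0.56.

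**Figure D1:**
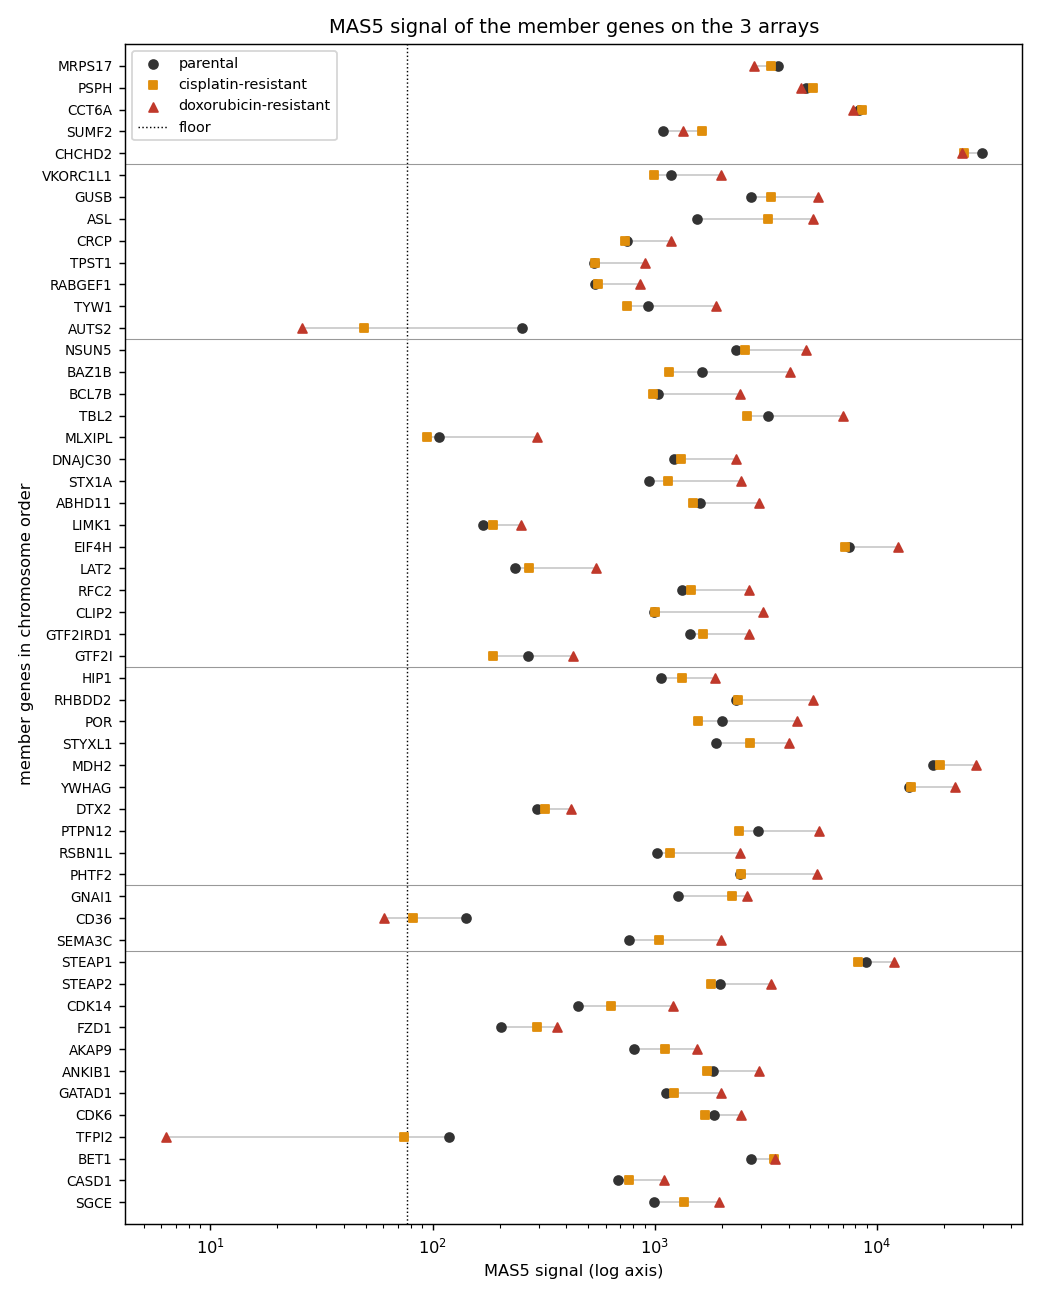
MAS5 signal (log axis) of the 53 member genes with a signal above the floor, in chromosome order from the short arm at the top. Symbols are the 3 arrays, grey lines separate position groups and the dotted line is the floor of 76.9; most long-arm genes have their highest signal in the doxorubicin-resistant array, and AUTS2, CD36 and TFPI2 have their highest in the parental one.

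By the probe sets used, the same members stayed close to parental in the cisplatin-resistant array. Their median difference was 0.04, with 3 of 53 at least 1.5-fold higher, where 9.29% of all genes were, and 3 at least 1.5-fold lower, where 8.26% of all genes were. ASL was the only member past 2-fold higher, where 2.82% of all genes were, and AUTS2 the only one past 2-fold lower, where 2.58% were. Other measured probe sets of RABGEF1, CDK6 and HIP1 were past 2-fold higher there, at 1.21, 1.61 and 1.06. Another of CD36 was past 2-fold lower, at -1.21. Both comparisons use the same parental array. Between the sublines, 51 members could be compared, and 32 were at least 1.5-fold higher in the doxorubicin-resistant than in the cisplatin-resistant array, where 9.16% of all genes were. In that comparison 15 were at least 2-fold higher, where 3.05% of all genes were, and the median was 0.70. None was at least 1.5-fold lower, where 9.91% of all genes were, and so none was 2-fold lower, where 3.32% were. By any amount, 45 of these 51 members (88.2%) were higher in the doxorubicin-resistant than in the cisplatin-resistant array, where 48.7% of all genes were.

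In chromosome order, the difference began between CHCHD2, the last member of the short arm in the list, and VKORC1L1, the first of the long arm. The 5 compared members of 7p11 had a median of -0.10 and none followed. The 7 other compared genes between CHCHD2 and VKORC1L1 had a median of 0.74, with 4 of them at least 1.5-fold higher, where 9.10% of all genes were. Medians were then 0.76 over the 8 compared members of proximal 7q11, 1.03 over the 15 of the Williams-Beuren interval and 1.00 over the 10 of distal 7q11. The 3 members of 7q21 before ABCB1 had values of 1.03, 1.36 and -0.88. The 11 compared genes of the ABCB1 cluster itself, from ELAPOR2 to SRI, had a median of 1.82, and beyond it the 12 compared members of 7q21 had a median of 0.72.

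SGCE was the last member of the list, so the end of the stretch was set by that choice. Shortly before it, TFPI2 and BET1 had differences of -0.62 and 0.36, while CASD1 and SGCE itself had 0.69 and 0.97. The 30 compared genes after SGCE had a median of 0.23, with 4 at least 1.5-fold higher, where 9.10% of all genes were. The 30 compared genes before the first member, MRPS17, had a median of -0.02, with 3 at least 1.5-fold higher. Genes that are neither members nor of the ABCB1 cluster but lie between MRPS17 and SGCE were also higher, with a median of 0.76 and 38 of 60 (63.3%) at least 1.5-fold higher. The other compared genes of chromosome 7, 506 in all, had a median of 0.19, with 102 (20.2%) at least 1.5-fold higher and 29 lower. In the cisplatin-resistant array the position groups had medians between -0.01 in proximal 7q11 and 0.44 in 7q21 before ABCB1, and the ABCB1 cluster had 0.29.

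**Figure D2:**
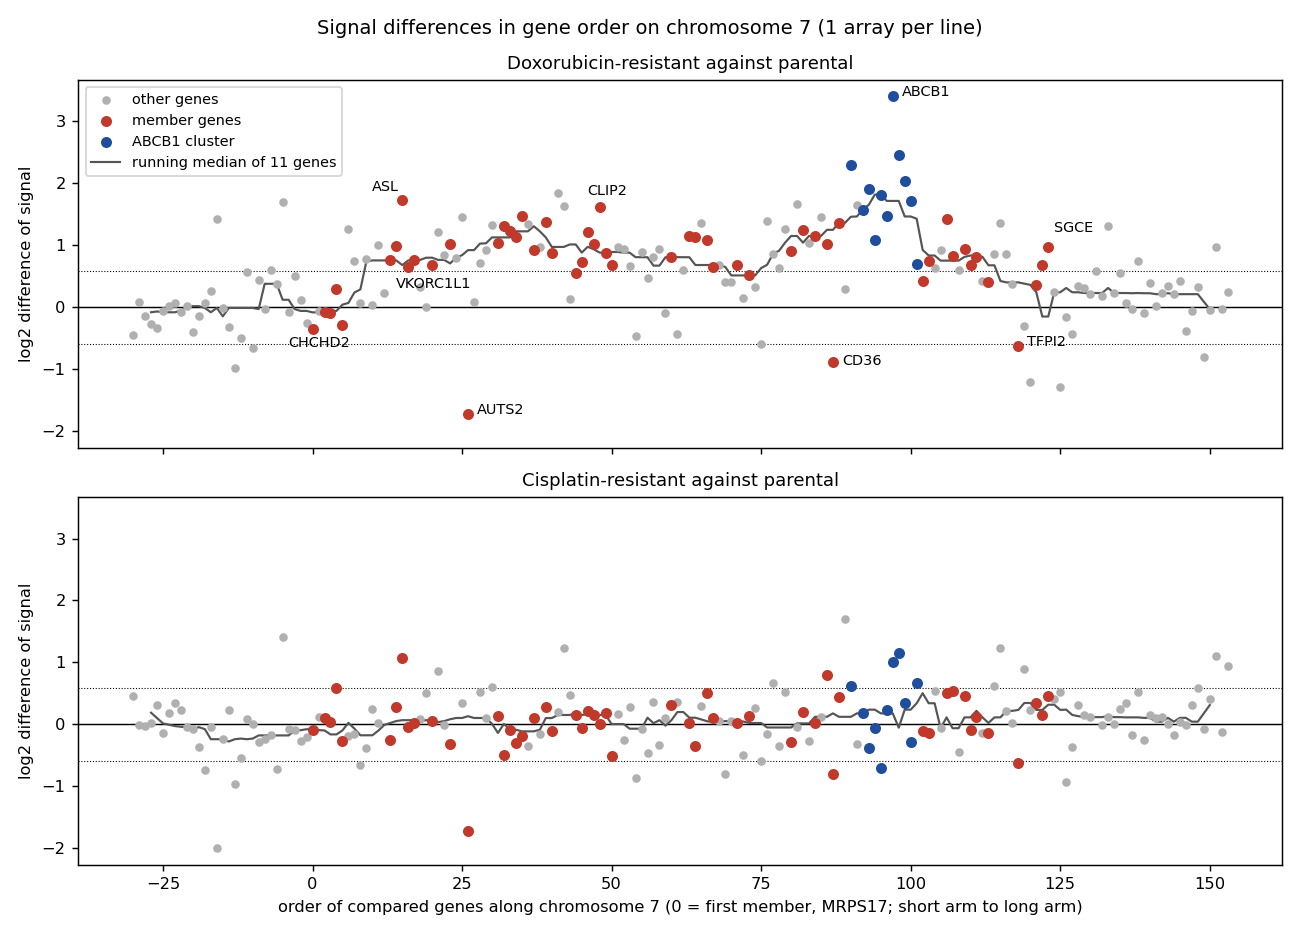
Log2 difference of signal from parental for compared genes in their order along chromosome 7, in the doxorubicin-resistant (top) and cisplatin-resistant (bottom) array, with member genes in red, the ABCB1 cluster in blue, other genes in grey, and dotted lines at 1.5-fold. In the top panel the running median leaves 0 after CHCHD2, peaks at the ABCB1 cluster and falls before SGCE. In the bottom panel it stays near 0.

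**Figure D3:**
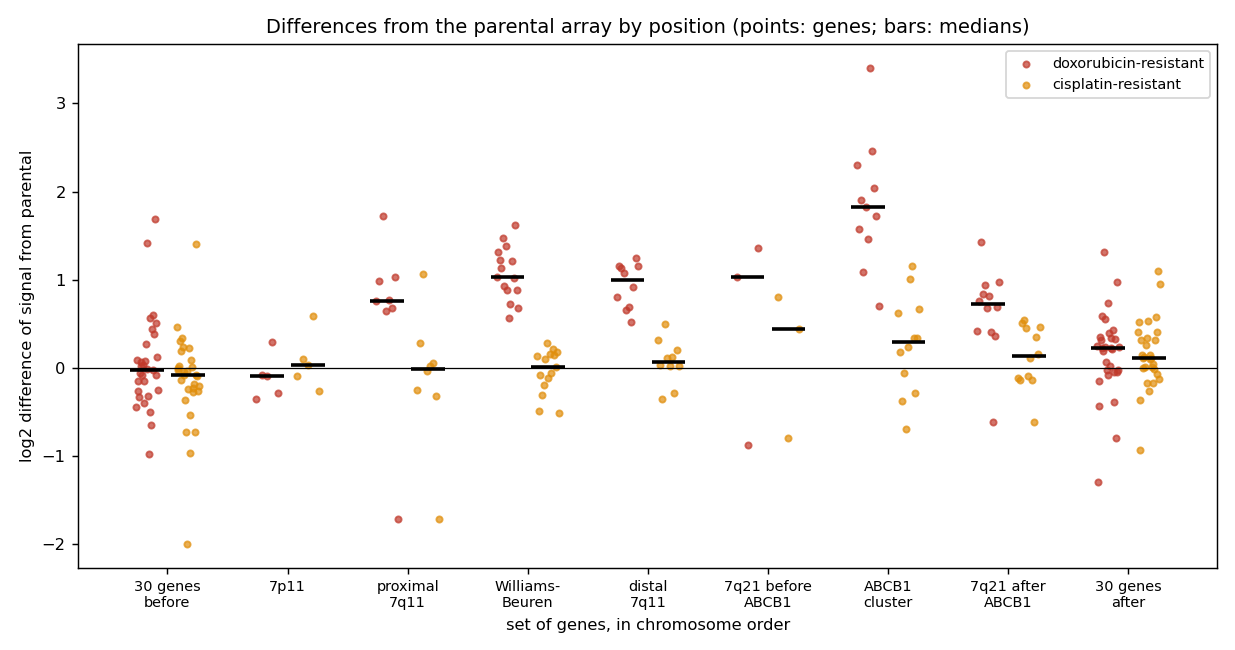
Log2 difference of signal from parental by position, with a point for each gene and a bar at the median, for both sublines. The median for the doxorubicin-resistant array is -0.10 in 7p11, 0.76 to 1.03 in the long-arm groups before ABCB1, 1.82 in the ABCB1 cluster and 0.72 after it.

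Promoter sequences are shown for the members at both ends of the range of differences, so that genes of the same stretch with opposite values can be set side by side. They are the 2 members with the highest and the 2 with the lowest difference between the doxorubicin-resistant and parental arrays among the 36 members with 1 start listed in RefSeq (GRCh38.p14). Each runs from 250 bases before to 50 after the gene start, 5′ to 3′ on the gene's strand, with capitals marking every match to the GC box GGGCGG on either strand. ASL lies at chr7:66075569-66075868 (plus strand), CLIP2 at chr7:74289157-74289456 (plus), AUTS2 at chr7:69598225-69598524 (plus) and TFPI2 at chr7:93890704-93891003 (minus).
ASL: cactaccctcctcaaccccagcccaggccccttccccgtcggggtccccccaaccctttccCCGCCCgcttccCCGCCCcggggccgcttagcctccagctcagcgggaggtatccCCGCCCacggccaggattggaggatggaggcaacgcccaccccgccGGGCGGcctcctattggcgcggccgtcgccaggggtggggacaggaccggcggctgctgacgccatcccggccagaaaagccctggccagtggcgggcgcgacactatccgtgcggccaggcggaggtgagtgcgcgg
CLIP2: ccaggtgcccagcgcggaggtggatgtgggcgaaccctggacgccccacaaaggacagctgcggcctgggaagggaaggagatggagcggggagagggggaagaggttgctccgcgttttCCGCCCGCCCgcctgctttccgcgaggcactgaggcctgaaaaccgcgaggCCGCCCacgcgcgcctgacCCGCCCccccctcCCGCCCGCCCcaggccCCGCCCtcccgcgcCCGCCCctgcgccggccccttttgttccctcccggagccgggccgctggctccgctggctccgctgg
AUTS2: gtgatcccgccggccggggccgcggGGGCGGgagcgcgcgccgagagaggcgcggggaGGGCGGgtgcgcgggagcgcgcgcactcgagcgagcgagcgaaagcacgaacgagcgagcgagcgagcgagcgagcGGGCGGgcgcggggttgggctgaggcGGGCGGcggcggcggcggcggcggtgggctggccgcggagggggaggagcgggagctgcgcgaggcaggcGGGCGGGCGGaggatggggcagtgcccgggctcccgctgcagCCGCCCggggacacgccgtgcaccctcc
TFPI2: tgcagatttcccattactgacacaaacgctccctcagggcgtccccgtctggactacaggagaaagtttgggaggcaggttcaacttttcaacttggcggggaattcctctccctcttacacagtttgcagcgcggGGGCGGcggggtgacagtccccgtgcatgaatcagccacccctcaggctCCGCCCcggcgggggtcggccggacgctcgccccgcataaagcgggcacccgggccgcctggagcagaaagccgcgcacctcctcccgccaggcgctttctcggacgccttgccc
The windows of ASL and CLIP2, whose signals were higher, hold 4 and 8 GC boxes, counting overlapping matches, and 30 and 33 CG dinucleotides. Those of AUTS2 and TFPI2, whose signals were lower, hold 7 and 2 GC boxes and 55 and 26 CG dinucleotides. A GC box was in 18 of 23 promoters of members that followed (78.3%) and in 6 of 8 of compared members that did not (75%). It was in 58.7% of 11786 promoters of protein-coding genes with 1 listed start. The TATA box TATAAA was in none of the 36 windows and in 10.5% of those of protein-coding genes. The CCAAT box CCAAT was in 15 of the 36 (41.7%), against 37.2%. The E-box CACGTG was in 1 of them (2.78%), against 8.86%. All motifs were searched on both strands. A match is a description of letters and not of a bound factor.

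The compared short-arm members stayed within 1.5-fold of parental in the doxorubicin-resistant array, and all but SUMF2 did in the cisplatin-resistant array. CHCHD2, a mitochondrial intermembrane-space protein, had a parental signal of 29612, against 24674 with cisplatin resistance and 24237 with doxorubicin resistance. CCT6A, a subunit of the cytosolic chaperonin that folds actin and tubulin, had 8321, 8537 and 7782, and PSPH, the phosphatase of the last step of serine synthesis, had 4818, 5163 and 4549 in the same order. Both genes had a second measured probe set with a difference under 0.11 in size in the doxorubicin-resistant array. In the cisplatin-resistant array that of PSPH was at -0.47. MRPS17, a protein of the small mitochondrial ribosomal subunit, had 3576, 3342 and 2800. SUMF2, a paralogue of the sulfatase-activating enzyme, had 1091, 1638 and 1334, and was the one short-arm member at 1.5-fold higher in the cisplatin-resistant array, by 0.59 in log2 units. PHKG1, the muscle catalytic subunit of phosphorylase kinase, was under the floor on every array. All 5 had differences between -0.35 and 0.29 in the doxorubicin-resistant array, and by the probe sets used each was lower there than with cisplatin resistance. The second probe sets of PSPH and CCT6A were higher there than with cisplatin resistance, by 0.36 and 0.07.

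Among the proximal 7q11 members, 7 of 8 followed, where 9.10% of all genes did. ASL, the urea cycle enzyme argininosuccinate lyase, whose promoter is printed above, had a parental signal of 1552, against 3245 with cisplatin resistance and 5141 with doxorubicin resistance. It was 3.31-fold higher in the doxorubicin-resistant and 2.09-fold higher in the cisplatin-resistant array, and had the largest difference of the higher members in both. GUSB, the lysosomal beta-glucuronidase often used as a reference gene in expression assays, had 2724, 3324 and 5408, a 1.99-fold higher signal in the doxorubicin-resistant array. TYW1, which takes part in wybutosine modification of phenylalanine tRNA, had 929, 747 and 1895, and its doxorubicin-resistant signal was 2.04-fold above parental and 2.54-fold above cisplatin-resistant. These genes differ in how the cisplatin-resistant array stands, above parental for ASL and GUSB and below it for TYW1.

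VKORC1L1, a paralogue of the vitamin K epoxide reductase, had signals of 1178 (parental), 988 (cisplatin-resistant) and 1992 (doxorubicin-resistant), and its second probe set gave 0.72 beside 0.76 in the doxorubicin-resistant array. TPST1, a Golgi tyrosine sulfotransferase, had 532, 540 and 905. CRCP, a small component of RNA polymerase III and of the CGRP receptor, had 753, 732 and 1178, and RABGEF1, an exchange factor for the endosomal GTPase Rab5, had 536, 556 and 860. By the probe sets used, the parental and cisplatin-resistant signals of these genes lay closer together than either did to the doxorubicin-resistant one, and the doxorubicin-resistant signal was 1.57-fold to 1.70-fold above parental. The second probe sets of CRCP and RABGEF1 were under 1.5-fold, at 0.52 and 0.46. That of RABGEF1 was highest with cisplatin resistance, at 73.0, 178 and 106, a difference of 1.21 from parental. AUTS2, a neurodevelopmental gene whose product joins a Polycomb complex, went the other way, with 253 in the parental array and 49.3 and 25.8, both under the floor, in the cisplatin-resistant and doxorubicin-resistant arrays. It was at least 3.29-fold lower in both sublines, by the 1 of its 3 probe sets that was measured.

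In the Williams-Beuren interval, 14 of 15 members followed, where 9.10% of all genes did, and 9 were at least 2-fold higher, where 2.99% were. By the probe sets used, none of the 15 reached 1.5-fold in either direction in the cisplatin-resistant array, where the values ran from -0.51 to 0.29. The other measured probe set of TBL2 was at -0.70 there. Of all genes, 9.29% were at least 1.5-fold higher in that array and 8.26% lower. Chromatin genes were among the higher ones. BAZ1B, a subunit of the WICH chromatin remodelling complex, had a parental signal of 1631, against 1163 with cisplatin resistance and 4042 with doxorubicin resistance. It was 2.48-fold above parental and 3.47-fold above cisplatin-resistant in the doxorubicin-resistant array, and its second measured probe set gave 1.11 against parental beside 1.31. BCL7B, a subunit of the SWI/SNF remodelling complex, had 1037, 977 and 2428. In the cisplatin-resistant array BCL7B stayed near parental, at -0.09, while BAZ1B was at -0.49 by the probe set used and 0.21 by the other.

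MLXIPL, the glucose-responsive transcription factor ChREBP that drives lipogenic genes in liver, was dim, with signals of 107 (parental), 93.9 (cisplatin-resistant) and 296 (doxorubicin-resistant). Its 2.77-fold higher signal rests on 1 probe set not far above the floor. The TFII-I family members GTF2IRD1 and GTF2I had 1446, 1641 and 2667, and 268, 188 and 429. GTF2I has pseudogene copies nearby, and its value here comes from a dim probe set, since others are shared with those copies. NSUN5, a methyltransferase of 28S ribosomal RNA, had 2332, 2555 and 4775, and both of its probe sets, at 1.03 and 1.21, are of a kind that can also detect related sequences.

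CLIP2, a microtubule plus-end linker protein, had a parental signal of 997, against 1001 with cisplatin resistance and 3055 with doxorubicin resistance. Its doxorubicin-resistant signal was 3.06-fold above parental, after ASL the largest difference of the higher members, while the parental and cisplatin-resistant arrays differed by 0.01. STX1A, a syntaxin of vesicle fusion, had 940, 1145 and 2452, 2.61-fold above parental. LAT2, an adaptor protein of immune-cell receptors, had 235, 271 and 543. The signals of these genes in the doxorubicin-resistant array stood clear of the other arrays.

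TBL2, a WD-repeat protein of the endoplasmic reticulum, had signals of 3229 (parental), 2611 (cisplatin-resistant) and 7063 (doxorubicin-resistant). RFC2, a subunit of the clamp loader of DNA replication, had 1319, 1462 and 2667, with 1.02 and 0.99 in its probe sets. DNAJC30, a mitochondrial DnaJ protein, had 1217, 1306 and 2324. All 3 genes had a second measured probe set at least 1.5-fold higher. ABHD11, a mitochondrial hydrolase, had 1601, 1481 and 2943, with probe sets from 0.55 to 0.88. EIF4H, which assists the translation initiation helicase eIF4A, had 7476, 7197 and 12391, a 1.66-fold higher signal. LIMK1, the kinase that inactivates cofilin, was the one member of the interval under 1.5-fold, with 169, 187 and 249 and a difference of 0.56.

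In distal 7q11, 9 of 10 compared members followed, where 9.10% of all genes did, and 5 were at least 2-fold higher, where 2.99% were. POR, the reductase that gives electrons to the microsomal cytochromes P450 and can also reduce doxorubicin, had a parental signal of 1998, against 1560 with cisplatin resistance and 4370 with doxorubicin resistance. It was 2.19-fold above parental and 2.80-fold above cisplatin-resistant, by 1 probe set. RHBDD2, a rhomboid-family membrane protein, had 2331, 2377 and 5179, and both of its probe sets exceeded 2-fold, at 1.15 and 1.02. STYXL1, a catalytically inactive phosphatase of mitochondria, had 1892, 2677 and 4001, and its 5 measured probe sets lay between 0.65 and 1.40. In the cisplatin-resistant array STYXL1 was above parental by 0.50, while POR was at -0.36. RHBDD2 was at 0.03 there by the probe set used and -0.27 by the other.

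PHTF2 had signals of 2418 (parental), 2445 (cisplatin-resistant) and 5374 (doxorubicin-resistant), and all 5 of its probe sets were at least 2-fold higher in the doxorubicin-resistant array, from 1.15 to 1.45. With cisplatin resistance they ran from -0.34 to 0.67. RSBN1L had 1020, 1173 and 2427, but its 4 probe sets ranged from 0.46 to 1.29. With cisplatin resistance those of RSBN1L ran from -0.30 to 0.60. PTPN12, the phosphatase PTP-PEST that acts on focal adhesion proteins, had 2912, 2392 and 5487. The other probe set of PTPN12 gave 1.53. MDH2, the malate dehydrogenase of the citric acid cycle, had 17855, 19233 and 28065, a difference of 0.65, and 1.14 by its dimmer probe set. YWHAG, the gamma isoform of 14-3-3, had 13988, 14206 and 22518, a difference of 0.69. HIP1, an endocytic clathrin adaptor, had 1062, 1320 and 1860, with probe sets from 0.66 to 1.14. The probe set at 1.14 had 78.3, 163 and 173, and was also 1.06 above parental with cisplatin resistance. DTX2, a ubiquitin ligase of the Deltex family, was the one that did not follow, with 295, 322 and 421 and a difference of 0.52.

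The 3 members of 7q21 before ABCB1 were of different kinds. GNAI1, an inhibitory G protein alpha subunit, had a parental signal of 1276, against 2229 with cisplatin resistance and 2607 with doxorubicin resistance, so both sublines were above parental, by 1.75-fold and 2.04-fold. Its second probe set gave 0.81 and 0.90 for the same comparisons. SEMA3C, a secreted semaphorin, had 769, 1044 and 1978, 2.57-fold above parental, but its second probe set gave only 0.21. CD36, the scavenger receptor that takes up fatty acids, had 141, 81.5 and 60.4, and the last was under the floor. With doxorubicin resistance its signal was at least 1.84-fold lower, and with cisplatin resistance 1.73-fold lower, and all 3 of its measured probe sets were lower in both, by differences of at least 0.79 in size.

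ABCB1, the gene in the middle of the stretch, had a parental signal of 897, against 1801 with cisplatin resistance and 9499 with doxorubicin resistance, a difference of 3.40 in the last. The highest difference of a member, 1.73 for ASL, was below those of 6 of the 11 compared cluster genes, namely ABCB1, RUNDC3B, ELAPOR2, SLC25A40, TMEM243 and CROT. CDK14, SEMA3C and GNAI1, the higher members on either side of the cluster, had 1.43, 1.36 and 1.03.

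Beyond ABCB1, 8 of 12 compared members followed, where 9.10% of all genes did. CDK14 alone was at least 2-fold higher, where 2.99% of all genes were. CDK14, a cyclin Y-dependent kinase of Wnt signalling, had a parental signal of 450, against 638 with cisplatin resistance and 1213 with doxorubicin resistance, 2.69-fold above parental. Its other probe sets gave 0.57 and 0.42, under 1.5-fold. The Wnt receptor FZD1 had 203, 296 and 362, and SGCE, the sarcoglycan epsilon subunit expressed from the paternal copy, had 988, 1359 and 1936. AKAP9, a scaffold of the centrosome and Golgi that binds protein kinase A, had 810, 1112 and 1552. By the probe sets used, the cisplatin-resistant signal of these genes lay between the other ones, at 0.46 to 0.55 above parental. The other measured probe set of AKAP9 was highest with cisplatin resistance, at 228, 340 and 328, and another of FZD1 exceeded the floor only there, at 79.9.

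STEAP1 and STEAP2, neighbouring genes of the six-transmembrane family to which several metalloreductases belong, differed in size. STEAP2 had signals of 1972 (parental), 1797 (cisplatin-resistant) and 3326 (doxorubicin-resistant), 1.69-fold above parental, and STEAP1 had 8920, 8239 and 11958, 1.34-fold above. STEAP1 thus did not follow although it lies next to the ABCB1 cluster. ANKIB1, a ubiquitin ligase, had 1833, 1720 and 2935, with other probe sets at 0.49 and 0.54. CASD1, which acetylates sialic acids, had 686, 766 and 1105. GATAD1, a chromatin-bound zinc-finger protein, had 1125, 1216 and 1979, a difference of 0.82, but its other 2 measured probe sets were below parental, at -0.08 and -0.41. It was the only member with measured probe sets of both signs.

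CDK6, the cyclin D-dependent kinase of the G1 phase, had signals of 1853 (parental), 1680 (cisplatin-resistant) and 2450 (doxorubicin-resistant), a difference of 0.40. Its 6 measured probe sets were all above 0 but ranged from 0.07 to 1.95. The probe set at 1.95 had 110, 336 and 426, and was also 1.61 above parental with cisplatin resistance. The other CDK6 probe sets measured in that comparison were below parental. BET1, a SNARE of transport between endoplasmic reticulum and Golgi, had 2713, 3447 and 3488, nearly the same in both sublines. TFPI2, a secreted Kunitz-type protease inhibitor, had 118, 74.6 and 6.30, the last 2 under the floor, at least 1.53-fold lower in both sublines. GTPBP10, a GTPase of mitochondrial ribosome assembly, was under the floor on every array by the 1 probe set that names it alone.

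The members that stood farthest from the median of the long-arm members were therefore of 2 kinds. Those far below were AUTS2, CD36 and TFPI2, at -2.61, -1.78 and -1.52 relative to it, and each had a parental signal of at most 253. Their doxorubicin-resistant signals were under the floor, so these distances and their order depend on it. With the floor at the 25th percentile their differences from parental were -3.29, -1.23 and -2.61. Those farthest above were ASL, CLIP2 and MLXIPL, at 0.83, 0.72 and 0.57. Over the 45 long-arm members above the floor on both arrays, the difference and the parental log2 signal had Pearson's r of -0.19 and Spearman's rho of -0.12, a description across genes of the same arrays. As a robust SD (scaled median absolute deviation), the difference varied by 0.33 over the long-arm members and 0.37 over all genes.

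Grouped by role, members of every group were among those that followed. For reference, 40 of the 48 long-arm members and 9.10% of all genes did. Each gene was counted in 1 group, and the group names fit some genes loosely. TBL2 and RHBDD2, described above as endoplasmic reticulum and membrane proteins, were counted with surface genes. ABHD11, called mitochondrial above, was counted as an enzyme. PHTF2 and RSBN1L, whose roles are not given above, were counted with chromatin and transcription. Of chromatin and transcription genes, 8 of 9 followed, with a median of 1.15, and the exception was AUTS2. Among enzymes of metabolism 7 of 9 followed with a median of 0.77, and PSPH and SUMF2 of the short arm did not. Genes of translation, RNA and protein folding had 4 of 5 following, with CCT6A of the short arm the exception, and mitochondrial genes 3 of 5, without MRPS17 and CHCHD2 of the short arm. Surface, secreted and receptor genes had 8 of 11 following, with a median of 0.97 and with CD36 and TFPI2 lower. Cell cycle and kinase genes had 4 of 6, and membrane traffic and cytoskeleton genes 5 of 6, with a median of 0.87. Of the ubiquitin genes, 1 of 2 followed. In the cisplatin-resistant array the medians of all these groups lay between -0.09 and 0.30.

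Other probe sets of the same genes had a smaller median difference. The 26 members with several measured probe sets had 44 beyond the one used. Of these, 38 were above parental in the doxorubicin-resistant array, where 50.4% of all genes were by the probe sets used. At least 1.5-fold higher were 23, where 9.10% of all genes were. Their median was 0.64, against 0.92 for the probe sets used in the same genes. All measured probe sets were above parental for 22 of the 26 members, and all were at least 1.5-fold higher for 13. The exceptions in sign were PSPH, CCT6A, CD36 and GATAD1.

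**Figure D4:**
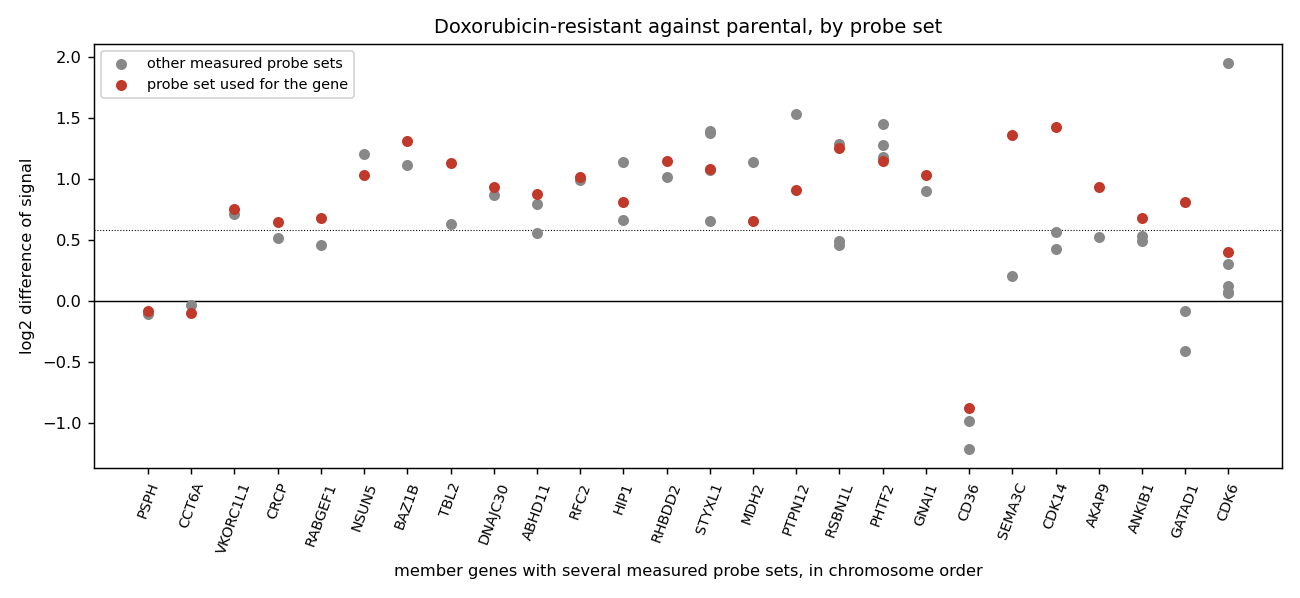
Log2 difference of signal between the doxorubicin-resistant and parental arrays for each measured probe set of the 26 members with several, in chromosome order, with the probe set used in red, others in grey and a dotted line at 1.5-fold. RFC2, VKORC1L1 and DNAJC30 have probe sets close together, while SEMA3C, CDK14, CDK6 and GATAD1 have probe sets far apart.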

How the data were processed

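RNA of the 3 lines was hybridised to Affymetrix U133 Plus 2.0 arrays. The authors deposited 1 linear intensity, called signal here, for each probe set. Per the submitters' processing notes these came from MAS5, whose version and settings are not given in the sources used. The mean of each array without its lowest and highest 2% of probe sets was 500.1, the form that global scaling gives. MAS5 subtracts mismatch signal, which makes low values noisy.

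Of 54675 probe sets, 41097 had 1 gene symbol in the platform annotation, 1801 had several and were used for no gene, and the rest had none. Symbols were updated and genes ordered through a RefSeq table of GRCh38.p14 (41043 matched). Each gene took the value of the probe set brightest on average. Signals were raised to a floor (76.9, the median of all values), and the difference of log2 values was called at 1.5-fold and 2-fold, with Python 3.11.15 and pandas 2.3.3. With 1 array per line there is no residual degree of freedom, so no test was made. The steps were tested on simulated data. Every member is named, together with genes of the ABCB1 cluster. Members, lists and tests were chosen with earlier results of these data known. Promoters of 51 members were found in RefSeq, 36 with 1 listed start. Floors, pseudocount, probe set choice, scaling and filter were varied.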

Additional observations from a re-analysis of the deposited data

Results flagged for a closer look

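Several members had opposite signs in the sublines, each by at least 1.2-fold, and the difference between the sublines was not tested. All were above parental in the doxorubicin-resistant array and below it in the cisplatin-resistant array, both set against 1 parental array. The cisplatin-resistant values were -0.51 for GTF2I, -0.49 for BAZ1B, -0.36 for POR, -0.32 for TYW1, -0.31 for TBL2 and -0.28 for PTPN12. The doxorubicin-resistant values were 0.68, 1.31, 1.13, 1.03, 1.13 and 0.91 in the same order. Their sign goes with how the members were selected. Over all genes the cisplatin-resistant difference had a robust SD of 0.37, so values of this size are common. The share of all genes with opposite signs was not computed. Other probe sets of BAZ1B and PTPN12 were above parental in the cisplatin-resistant array, at 0.21 and 0.46, and that of TBL2 was below it, at -0.70.

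The probe sets shared by a member and another gene were outside the comparisons. Of 12, 9 were measured, and 7 of these were at least 1.5-fold higher in the doxorubicin-resistant array, where 9.10% of all genes were. Their median log2 difference was 1.17 (0.36 to 2.15). Their median was 0.23 in the cisplatin-resistant array.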

How the results depend on the processing

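The median of the members with doxorubicin resistance was 0.76 to 0.88 over the 9 alternatives, and between 35 of 53 compared members (median over measured probe sets) and 36 of 45 or 40 of 50 (floor at the 75th percentile, or both values above the floor) were past 1.5-fold higher. Over all genes, 6.84% to 12.7% were in the same alternatives. Of the 40 that followed, 32 did so in every alternative that gave a value and 39 were above 0 in all of them. Without probe sets ending in _s_at or _x_at, 38 members remained against parental and 10 of them were past 2-fold higher with doxorubicin resistance, while 9 of 36 were past 2-fold higher than with cisplatin resistance. Over all genes, 2.93% and 3.04% were. By the median over measured probe sets, GATAD1 reversed to -0.084 against parental and RABGEF1 to -0.059 between the sublines. By it 5 of 53 members were past 1.5-fold higher with cisplatin resistance, where 8.26% of all genes were. The cause was not tested.

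Counts of lower members moved with the treatment of dim values. With the floor at the 75th percentile, 0 members were past 1.5-fold or 2-fold lower than parental in either subline. Of all genes, 429 and 99 of 8306 were with doxorubicin resistance, and 482 and 126 of 8380 with cisplatin resistance. Where both values had to exceed the floor, the doxorubicin counts were also 0, and the cisplatin counts were 1 at 1.5-fold and 0 at 2-fold. The counts over all genes were 867 and 241 of 11357 with doxorubicin resistance, and 907 and 261 of 11489 with cisplatin resistance. With the floor at the 25th percentile, 4 of 54 were past 2-fold lower than parental with doxorubicin resistance, where 1183 of all 17242 genes were. Between the sublines 3 were past 1.5-fold and 2 past 2-fold lower, where 2741 and 1256 of all 17237 genes were. With no floor and a pseudocount of 50, 2 were past 2-fold lower with doxorubicin resistance, where 352 of all 12599 genes were. In the same setting 1 was past 1.5-fold lower with cisplatin resistance, where 977 of all 12699 genes were. With the probe set of highest mean log2, 2 were past 2-fold lower in each subline. Over all genes, 345 of 12605 were with doxorubicin resistance and 328 of 12710 with cisplatin resistance. No paired analysis was possible because each line has 1 array.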
